A study of Mus musculus with 12 samples.

Results

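The Ly6 surface antigens Ly6a, Ly6c1, Ly6c2, Ly6e, Ly6g, Ly6h and Ly6i were followed in mouse retina and in cultures labelled brain microvascular pericytes, each given small extracellular vesicles of mesenchymal stem cells or phosphate-buffered saline (PBS). The members were chosen by gene name, 7 of 55488 genes listed in either of 2 count tables, with earlier results of these data known. All retina samples were labelled wild type and taken on day 1 after ONC, optic nerve crush. Of the 6 retina libraries 3 had PBS with the crush and 3 had the vesicles (MSC.sEV), which the label marks i.o. without spelling it out. All pericyte samples were labelled wild type and P4, which is not spelled out, with PBS in 3 libraries and the vesicles in 3, at 12 hours. The labels give no strain, age or vesicle dose, and do not say whether libraries came from separate animals or cultures, so p-values measure the spread between these libraries, which may be technical.

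Ly6 proteins are small, disulfide-bonded proteins held on the outer face of the cell membrane by a glycosylphosphatidylinositol (GPI) anchor. They are used above all as markers. Ly6C, encoded by Ly6c1 and Ly6c2, separates Ly6C-high inflammatory monocytes from Ly6C-low patrolling ones, and the title of the series names Ly6Clow monocytes and macrophages. Ly6G marks mouse neutrophils, Ly6A is the stem cell antigen Sca-1, also carried by endothelium, and Ly6a and Ly6e are induced by interferon. Ly6H is found mainly on neurons, where it modulates nicotinic acetylcholine receptors.

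The members lie in a single cluster on chromosome 15 that runs from Ly6e to Ly6h and holds 30 annotated genes, 17 of them pseudogenes and 10 protein-coding (GENCODE M21, GRCm38). Several members are close copies, so the letters in which they differ decide which gene a read is counted for. The coding sequences of Ly6c1 and Ly6c2 were identical at 384 of 393 positions (97.7%), with 9 mismatches, and shared an unbroken run of 188 bases. The first 90 coding bases, shown because 6 of the 9 differences fall there, read as follows, with differing bases in capitals.
Ly6c1: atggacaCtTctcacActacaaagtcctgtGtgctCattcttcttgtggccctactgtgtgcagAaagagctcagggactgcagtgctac
Ly6c2: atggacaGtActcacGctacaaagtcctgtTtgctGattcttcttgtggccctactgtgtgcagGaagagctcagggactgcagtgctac
Ly6a and Ly6i were 86.3% identical in coding sequence and Ly6a and Ly6g 83.1%. Ly6e and Ly6h stood apart from all other members at 48.0% to 52.7%. At a length of 100 bases, 10.1% of the windows in Ly6c1 transcripts, 14.9% in Ly6c2 and 1.45% in Ly6a also occurred in transcripts of another gene, and no window of Ly6e, Ly6g, Ly6h or Ly6i did. At 50 bases the shares were 32.8% for Ly6c1, 31.2% for Ly6c2, 19.0% for Ly6a, 4.76% for Ly6i, 0.448% for Ly6g and 0.248% for Ly6h, and none for Ly6e. The read length and the handling of reads that match several genes are not given in the sources used here, so values of Ly6c1, Ly6c2 and Ly6a are uncertain by an unknown exchange of reads.

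**Figure D1:**
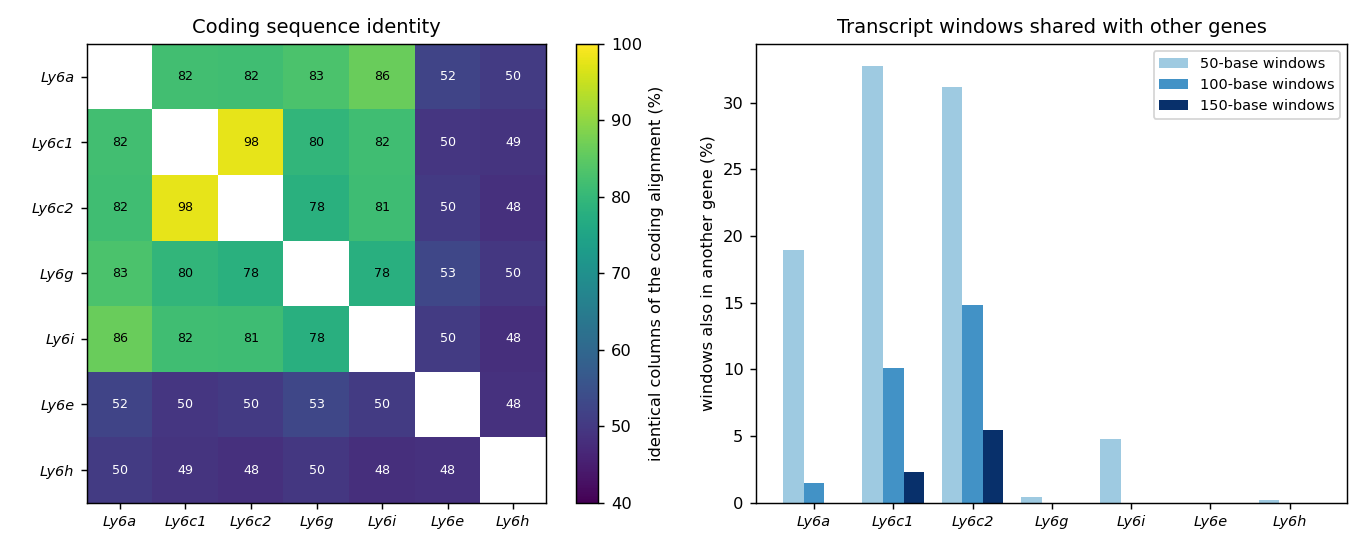
Left, identity of the coding sequences of each pair of members, in percent of alignment columns. Right, percent of each gene's transcript windows of 50, 100 or 150 bases that occur letter for letter in another gene. Ly6c1 and Ly6c2 stand out with 97.7% identity and the largest shares at 100 and 150 bases, while Ly6e and Ly6h share little with any member.

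The 250 bases before the start sites of Ly6c1, Ly6c2 and Ly6g are printed because Ly6c2 and Ly6g were the members called in the retina while Ly6c1, the near copy of Ly6c2, was not (RefSeq, GRCm38.p6, the first listed start of each gene). Capitals mark the letters GAGGAAGT, the core bound by the myeloid factor PU.1, a motif picked after the promoters had been read.
Ly6c1 promoter (chr15:75048838-75049087, minus strand): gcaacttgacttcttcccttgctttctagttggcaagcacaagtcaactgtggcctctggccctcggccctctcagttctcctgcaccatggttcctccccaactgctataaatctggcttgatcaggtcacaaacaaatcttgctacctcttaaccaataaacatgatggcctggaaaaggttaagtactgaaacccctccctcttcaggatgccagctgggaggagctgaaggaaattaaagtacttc
Ly6c2 promoter (chr15:75111972-75112221, minus strand): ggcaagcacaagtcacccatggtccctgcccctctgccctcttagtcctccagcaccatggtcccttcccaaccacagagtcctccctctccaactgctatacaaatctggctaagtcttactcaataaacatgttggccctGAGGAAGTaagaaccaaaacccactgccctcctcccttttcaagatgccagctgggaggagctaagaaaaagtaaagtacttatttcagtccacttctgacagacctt
Ly6g promoter (chr15:75155011-75155260, plus strand): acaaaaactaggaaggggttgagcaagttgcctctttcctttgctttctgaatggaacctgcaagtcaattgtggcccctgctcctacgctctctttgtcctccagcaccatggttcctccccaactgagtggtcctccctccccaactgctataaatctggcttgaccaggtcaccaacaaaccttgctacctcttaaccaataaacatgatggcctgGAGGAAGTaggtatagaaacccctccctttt
With both strands searched, GAGGAAGT was found on the strand of the gene 108 bases before the Ly6c2 start and 31 bases before the Ly6g start, and not before the first Ly6c1 start, although it lies 127 bases before a second annotated Ly6c1 start. It occurs in 2.44% of 32851 promoters of the same length. The interferon-stimulated response element GAAANNGAAA (2.98% of promoters), the gamma-activated site TTCNNNGAA (7.02%) and the kB motif (3.9%) had no match in the 3 sequences, and no 2 motifs overlapped. A match is a description of letters and not a measured binding site, and the data hold no measure of binding. Promoters of the other 4 members were not used here.

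Levels are in CPM, each count as a share of a common library total, scaled by the trimmed mean of M-values. Retina libraries held between 15580024 and 16842926 counts and pericyte-labelled libraries between 33001248 and 37954077. Libraries are numbered by their columns, and the retina columns were matched to groups from short names by inference. Several retina libraries stood apart. Lens mRNAs took 0.779% of counts in PBS library 1 and 8.20% in vesicle library 2, the most in each group, against 0.0193% in vesicle library 3. Keratins and other surface epithelium mRNAs, a list of 12 genes chosen after values were seen, summed to 737 CPM in PBS library 3, to 47.9 and 22.7 in the other PBS libraries, and to between 47.7 and 164 with vesicles. In the pericyte-labelled PBS cultures Pdgfrb (59.7 CPM) and Cspg4 (11.9 CPM) were present, while the pericyte markers Rgs5 (0.283), Kcnj8 (0.0792) and Abcc9 (0) were near or at 0. The glial genes Gfap (215 CPM) and Olig2 (64.4 CPM) were high there, so the label is only partly met by the markers and the cells are called pericyte-labelled throughout.

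In the retina, Ly6c2 and Ly6g were called higher with vesicles, Ly6c2 marginally. Ly6c2, which encodes part of the Ly6C monocyte antigen, went up 6.67-fold in mean level and Ly6g, the neutrophil antigen, from 2 counts in all to 60. In bulk tissue, more cells of a type and more RNA per cell cannot be told apart. Calls are at an adjusted p under 0.05 in edgeR's quasi-likelihood test with Benjamini-Hochberg adjustment over 15440 tested genes, of which 15.9% were called, 10.7% higher and 5.19% lower. Of the 7 members, 6 passed the low-count filter and 2 of these were called higher. The groups did not overlap for 3 tested members, against 35.7% of all tested genes, and the median log2 fold change was 0.47 over the tested members and -0.015 over all tested genes. Ly6c2 and Ly6g reached the filter's count in enough libraries only through the vesicle group, so these counts and this median are descriptions and support nothing about the family.

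Ly6c2 stood at 3.85, 0.486 and 2.64 CPM in PBS libraries 1 to 3 and at 23.4, 13.1 and 10.1 CPM in vesicle libraries 1 to 3. Each vesicle library exceeded each PBS library, and PBS library 2 was the lowest, with 8 counts. The means were 2.33 ± 1.70 and 15.5 ± 7.02 CPM (SD, n = 3), a log2 fold change of 2.74 ± 0.68 (SE, edgeR adjusted p = 0.048, 95% interval of the fold 2.08 to 21.5). The call was marginal. It was lost in 8 of the 10 alternatives that test Ly6c2 alone, 5 of them the removal of PBS library 1 (adjusted p = 0.062) or 3 (0.12) or of vesicle library 1 (0.12), 2 (0.13) or 3 (0.067), while DESeq2 gave an adjusted p of 0.0074. Without the libraries richest in lens mRNAs, the change was 3.42 ± 0.92 with an adjusted p of 0.14.

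Ly6c1, the copy that endothelial cells express, did not pass the test. Its level was 27.2, 22.8 and 18.3 CPM with PBS and 30.6, 27.6 and 29.0 with vesicles. The groups did not overlap but lay close, at means of 22.7 ± 4.45 and 29.1 ± 1.48 CPM (SD, n = 3). The log2 fold change was 0.36 ± 0.15 (edgeR adjusted p = 0.15, 95% interval 0.02 to 0.70). Without PBS library 1, the highest PBS library, it was 0.50 and passed (adjusted p = 0.044), a removal that raises the change by itself. Without the lens-rich libraries, PBS library 1 among them, it was 0.55 (adjusted p = 0.064).

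The balance between the copies is given as a description. It is computed from the same Ly6c1 and Ly6c2 counts, so it restates their changes and is no separate support. Ly6c2 made up 12.4%, 2.09% and 12.6% of the counts of Ly6c1 and Ly6c2 together in PBS libraries 1 to 3 (exact 95% binomial intervals 9.59% to 15.7%, 0.906% to 4.07% and 9.34% to 16.6%). In vesicle libraries 1 to 3 it made up 43.4% (40.03% to 46.8%), 32.1% (28.5% to 35.9%) and 25.8% (22.4% to 29.3%). The lowest vesicle library thus lay above the highest PBS library, with means of 33.8% ± 8.93 and 9.05% ± 6.03 (SD, n = 3). The exact 2-sided permutation p was 0.1, the smallest that 3 against 3 libraries allow. Summing the copies removes the effect of reads exchanged between them. The sum was 31.0, 23.3 and 20.9 CPM with PBS and 54.0, 40.7 and 39.1 with vesicles, a log2 fold change of 0.83 ± 0.18 (edgeR adjusted p = 0.013).

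Ly6g was nearly absent with PBS, where its counts were 1, 0 and 1, while the vesicle libraries held 18, 22 and 20. The 3 vesicle libraries lay close together, at 1.15, 1.39 and 1.23 CPM, and all were far above the PBS libraries. The ratio of the pooled counts was 30.4 with an exact 95% counting interval from 8.07 to 257, and the fitted log2 fold change was 4.69 ± 0.66 (edgeR adjusted p = 0.0016). The call held in all 10 alternatives that test Ly6g alone, with adjusted p from 0.00028 to 0.021.

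Ly6i, a little-studied close relative of Ly6a, was counted 0, 0 and 1 times in PBS libraries 1 to 3 and 50, 15 and 5 times in vesicle libraries 1 to 3. It did not pass the low-count filter. The pooled ratio was 71.0, with an exact 95% counting interval from 12.3 to 2845, and vesicle library 1 held 50 of the 70 counts. Tested without the filter, its log2 fold change was 5.70 ± 1.17 (edgeR adjusted p = 0.0059), and DESeq2 gave 6.05 ± 1.48 (adjusted p = 0.00057).

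Markers of blood myeloid cells moved with these genes. No member stands in a marker list. Beside the counts that follow, 10.7% of all tested retina genes were called higher and 5.19% lower. Of 20 tested monocyte and macrophage genes 19 were called higher, and their summed level went from 82.3 to 142 CPM with PBS to between 1037 and 1506 with vesicles. Ccr2, the chemokine receptor of Ly6C-high monocytes, was 4.76, 1.34 and 2.34 CPM with PBS and 46.7, 37.6 and 31.4 with vesicles. Within the groups it was lowest in PBS library 2 and highest in vesicle library 1, as for Ly6c2. Other markers had another order. Lyz2, the myeloid lysozyme, was 663, 690 and 456 CPM in vesicle libraries 1 to 3. Ptprc, the common leukocyte antigen, was 36.0, 36.5 and 24.6 CPM there. Of 12 tested neutrophil genes 11 were called higher, with sums of 20.2 to 46.1 CPM with PBS and 452 to 953 with vesicles. A gene too low with PBS is tested only if its vesicle counts reach the filter, so such counts of called genes are descriptions. S100a8 went from 2.56 ± 0.987 to 194 ± 72.9 CPM and Csf3r from 1.85 ± 0.808 to 49.2 ± 21.4 (SD, n = 3). Both were lowest with vesicles in vesicle library 3 (117 and 25.2 CPM), while Ly6g was similar in all vesicle libraries. Of 9 tested genes of a Ly6C-low monocyte list 5 were called higher and 1 lower, the fatty acid receptor Cd36. The median log2 fold change of the list was 1.11, with sums of 43.1 to 48.7 CPM with PBS and 75.9 to 128 with vesicles. Cx3cr1, the receptor that defines Ly6C-low monocytes and also marks microglia, was 2.96 ± 0.460 CPM with PBS and 3.75 ± 0.641 with vesicles and did not pass (edgeR adjusted p = 0.44). P2ry12, a microglial gene, went from 10.2 ± 1.29 to 3.87 ± 0.642 CPM (edgeR adjusted p = 0.0028). Of 11 tested microglia genes 3 were called higher and 4 lower. Of 36 tested interferon-stimulated genes 29 were called higher, with sums of 275 to 327 CPM against 680 to 1330. With vesicles the sum was highest in vesicle library 1 and lowest in vesicle library 3, as for Ly6i and for Ly6c2. The part of cell content in the changes of Ly6c2, Ly6g and Ly6i was not tested.

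**Figure D2:**
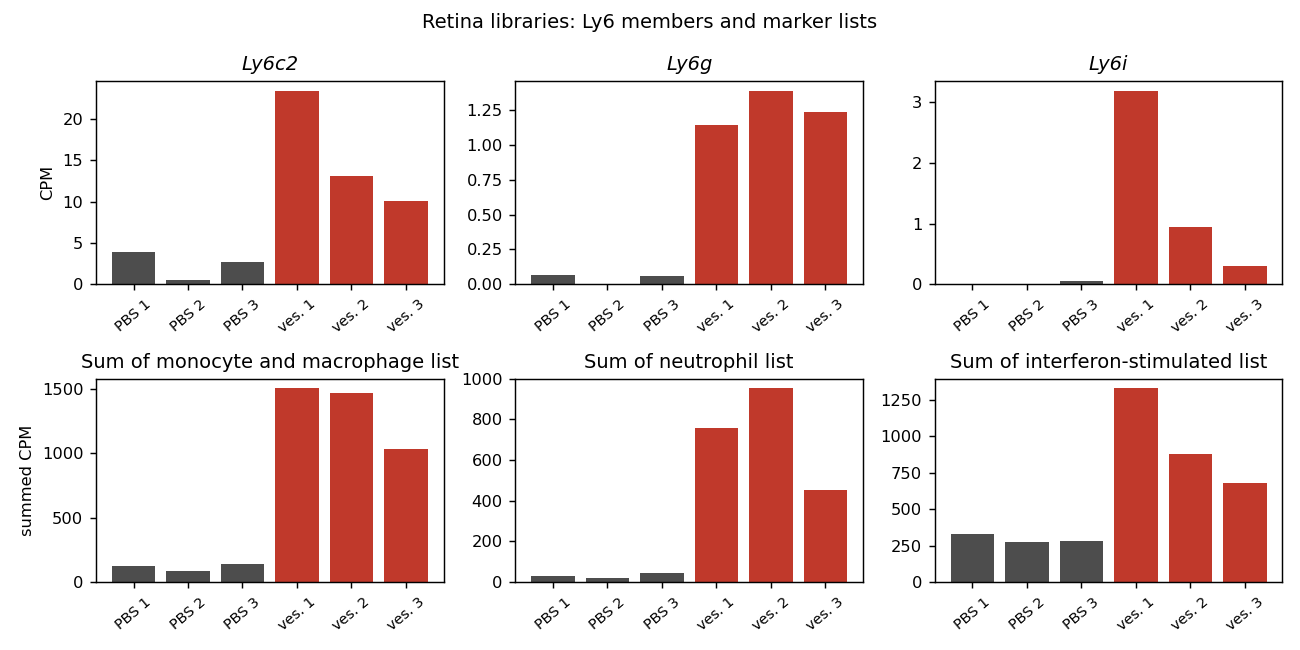
Levels in the 6 retina libraries (CPM, bars from 0, grey for PBS and red for vesicles). The top row shows Ly6c2, Ly6g and Ly6i, and the bottom row the summed CPM of the monocyte and macrophage, neutrophil and interferon-stimulated lists. All 6 panels are higher in each vesicle library than in any PBS library, and Ly6i ranges from 0.309 to 3.19 CPM among vesicle libraries.

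Ly6a and Ly6e did not pass the test in the retina with all 6 libraries. Ly6a was 28.7, 21.5 and 41.6 CPM with PBS and 44.6, 38.4 and 41.4 with vesicles, a log2 fold change of 0.44 ± 0.22 (edgeR adjusted p = 0.22, 95% interval -0.07 to 0.94). PBS library 3 lay within the vesicle range and the other PBS libraries below it. Ly6e was 25.8, 27.3 and 57.6 CPM with PBS and 65.4, 51.5 and 39.9 with vesicles, a change of 0.50 ± 0.37 (adjusted p = 0.43, 95% interval -0.43 to 1.43). PBS library 3, the library with 737 CPM of surface epithelium mRNAs, again lay within the vesicle range. Krt5, a basal epithelial keratin, was 148 CPM there and 9.79 and 2.61 in the other PBS libraries. Without that library the log2 fold change was, for Ly6a, 0.72 ± 0.16 (edgeR adjusted p = 0.021) and, for Ly6e, 0.97 ± 0.20 (adjusted p = 0.020). It was the highest PBS library for both genes, and leaving out the highest PBS value raises the change by itself. These passes are therefore no support for a rise. Without the lens-rich libraries neither gene passed, at 0.46 ± 0.34 (adjusted p = 0.47) and 0.32 ± 0.51 (adjusted p = 0.76). The part of epithelial mRNA in these levels was not tested.

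**Figure D3:**
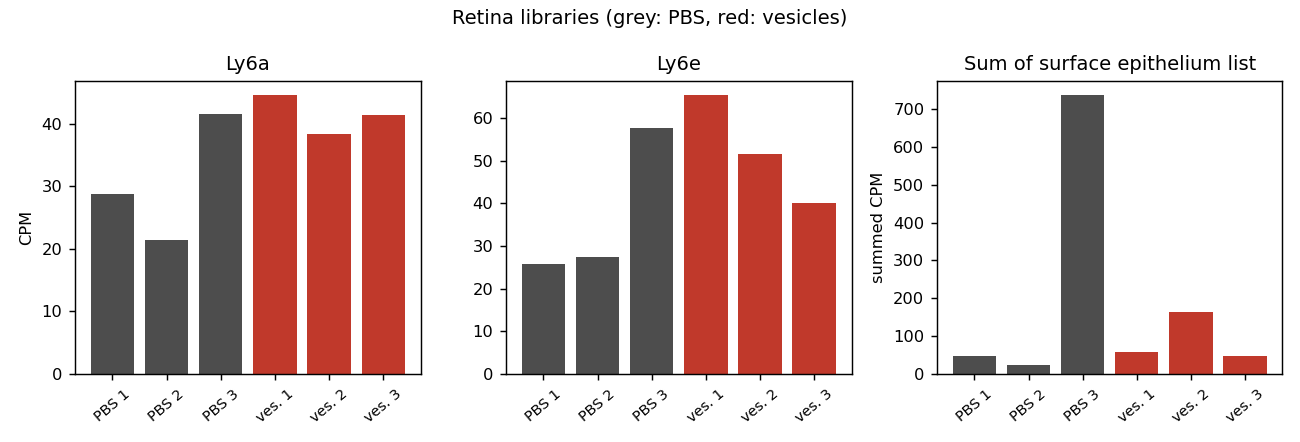
Ly6a, Ly6e and the sum of the surface epithelium list in the 6 retina libraries (CPM, bars from 0, grey for PBS and red for vesicles). PBS library 3 is the highest PBS library in all 3 panels, with 41.6, 57.6 and 737 CPM.

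Ly6h, the neuronal member, was 34.8, 51.6 and 41.2 CPM with PBS and 46.1, 33.9 and 41.6 with vesicles. The groups overlapped widely, with means of 42.5 ± 8.50 and 40.5 ± 6.19 CPM (SD, n = 3). The log2 difference was -0.07 ± 0.16 (edgeR adjusted p = 0.81, 95% interval -0.44 to 0.30), which allows a change of up to 1.23-fold up or to 0.737 of the PBS level.

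Per kilobase of annotated exon, Ly6a was the most abundant member in PBS retinas, at 25.4 ± 8.45 CPM per kb. Ly6c1 (13.6 ± 2.65), Ly6h (10.1 ± 2.01) and Ly6e (9.75 ± 4.74) followed and each overlapped its neighbour in that order. Ly6c2 lay far below at 0.849 ± 0.622, and Ly6g (0.0444) and Ly6i (0.0173) came last and did not differ beyond their spread. With vesicles the order was Ly6a (34.4 ± 2.56 CPM per kb), Ly6c1 (17.3 ± 0.881), Ly6e (13.8 ± 3.36), Ly6h (9.59 ± 1.46), Ly6c2 (5.67 ± 2.56), Ly6g (1.33 ± 0.131) and Ly6i (1.28 ± 1.31). From Ly6c1 to Ly6c2 each overlapped the next, as did Ly6g and Ly6i. Dividing by the principal transcript instead moves Ly6h to the second place with PBS and the third with vesicles.

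In the pericyte-labelled cultures, Ly6a and Ly6e were called higher with vesicles. Ly6a went up 1.79-fold and Ly6e 1.77-fold in mean level. Ly6c1, Ly6c2, Ly6g and Ly6i were at or near 0, too low for a change in them to be tested. Of the 7 members 3 passed the low-count filter and 2 were called higher, against 19.8% of 16975 tested genes called in either direction, 10.9% higher and 8.9% lower. Their groups did not overlap, which held for 33.8% of all tested genes. The median log2 fold change was 0.82 over the 3 tested members and 0.00056 over all tested genes.

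**Figure D4:**
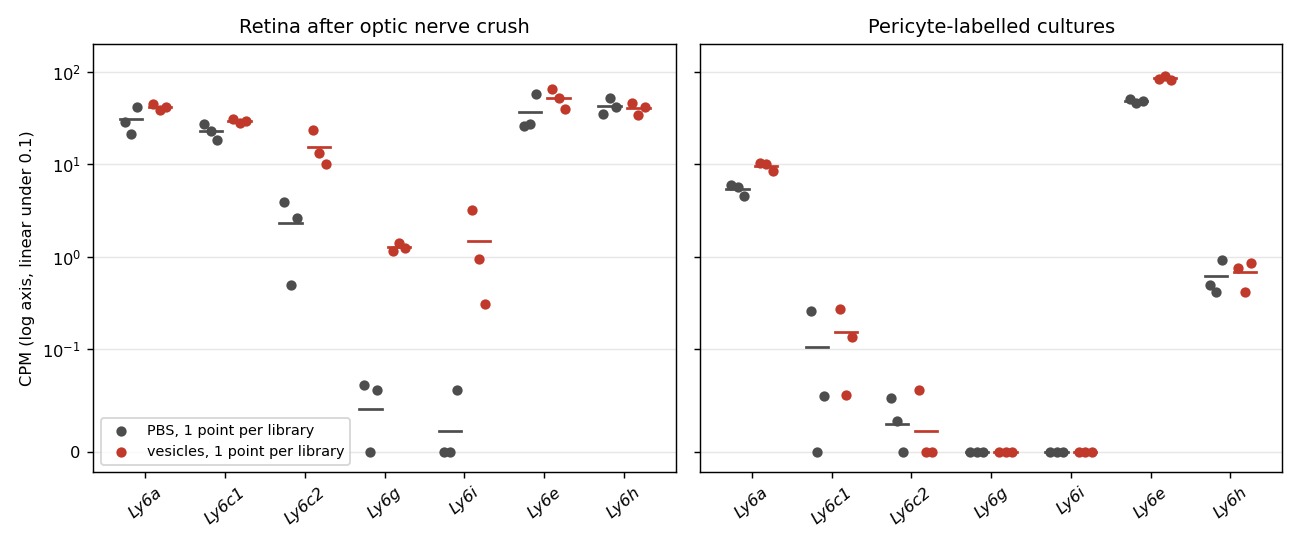
CPM of the 7 members in each library (log axis, linear under 0.1), retina on the left and pericyte-labelled cultures on the right, 1 point per library and a line at the mean, grey for PBS and red for vesicles. Ly6c2, Ly6g and Ly6i separate in the retina, and Ly6a and Ly6e separate in the cultures, where Ly6g and Ly6i are at 0 in all 6 libraries.

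Ly6e was 50.3, 46.2 and 48.0 CPM with PBS and 84.1, 91.1 and 80.6 with vesicles. The lowest vesicle library lay well above the highest PBS library, and the means were 48.1 ± 2.03 and 85.3 ± 5.37 (SD, n = 3). The log2 fold change was 0.82 ± 0.07 (edgeR adjusted p = 6.3e-09, 95% interval of the fold 1.61 to 1.95). Ly6a was 5.94, 5.65 and 4.48 CPM with PBS and 10.3, 9.96 and 8.40 with vesicles, again without overlap. Its log2 fold change was 0.84 ± 0.15 (adjusted p = 0.00027, 95% interval of the fold 1.44 to 2.21). Both calls held in every alternative that tests the gene alone, with log2 changes from 0.72 to 0.92 for Ly6a and from 0.77 to 0.86 for Ly6e.

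For Ly6h the PBS libraries held 19, 14 and 34 counts and the vesicle libraries 25, 15 and 32, and the groups overlapped (log2 difference 0.14 ± 0.51, edgeR adjusted p = 0.90, 95% interval -0.92 to 1.19). At this depth a change within that interval was not detectable. For Ly6c1 the counts were 10, 0 and 2 in PBS libraries and 9, 2 and 5 in vesicle libraries, a ratio of 1.36 with an exact 95% counting interval from 0.603 to 3.15. Ly6c2 had 3 counts with PBS and 2 with vesicles, so no fold is given. Ly6g and Ly6i had 0 counts in all 6 libraries, which allows up to 3 counts per group, or 0.0275 CPM with PBS and 0.0280 with vesicles.

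Interferon-stimulated genes rose together with Ly6a and Ly6e in the cultures. Beside the counts that follow, 10.9% of all tested genes there were called higher and 8.9% lower. All 38 tested genes of the list were called higher, and their summed level went from between 906 and 966 CPM to between 6579 and 7095. Isg15 went from 8.05 ± 0.920 to 139 ± 11.04 CPM and Irf7 from 13.2 ± 0.980 to 115 ± 9.50 (SD, n = 3). Markers of other cells that could carry members were mixed there. Ccr2 and S100a9 had 0 counts in all 6 libraries. S100a8 had 16 counts with PBS and 22 with vesicles, and Csf3r had 1 and 4. Neutrophil genes summed to between 3.09 and 3.77 CPM with PBS and between 5.20 and 5.76 with vesicles. The monocyte and macrophage list was not near 0, with sums between 1388 and 1507 CPM with PBS and between 1404 and 1649.9 with vesicles, and 6 of its 12 tested genes were called higher. Among them Ptprc, the common leukocyte antigen, went from 0.254 ± 0.178 to 1.13 ± 0.0814 CPM (SD, n = 3, edgeR adjusted p = 0.0085). Lyz2, the myeloid lysozyme, was 71.8 ± 2.73 CPM with PBS and 92.8 ± 21.4 with vesicles (adjusted p = 0.14). The part of such cells in the changes of Ly6a and Ly6e was not tested. Genes of endothelial cells, which could carry Ly6a and Ly6c1, summed to between 208 and 220 CPM with PBS and between 199 and 205 with vesicles. Of 13 tested 1 was called higher and 4 lower. Cldn5 was at 0 in all libraries, while Cdh5 was 8.56 ± 0.672 CPM with PBS and 8.10 ± 2.49 with vesicles. Pecam1 was 0.259 ± 0.151 and 0.435 ± 0.166 CPM (SD, n = 3). The part of endothelial cells was not tested. Per kilobase of exon, Ly6e (12.7 ± 0.537 CPM per kb with PBS, 22.5 ± 1.42 with vesicles) lay above Ly6a (4.44 ± 0.639 and 7.93 ± 0.847) without overlap in both groups. Levels are not compared between the tables, which list different gene classes.

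The vesicle effects of the 3 members tested in both tables were compared in a joint limma fit, in which 12.2% of 13712 genes differed. The log2 effect in the retina minus that in the cultures was -0.35 ± 0.26 for Ly6a (limma adjusted p = 0.44, 95% interval -0.90 to 0.20). For Ly6e it was -0.26 ± 0.31 (adjusted p = 0.67, 95% interval -0.94 to 0.43) and for Ly6h -0.22 ± 0.50 (adjusted p = 0.84, 95% interval -1.26 to 0.83). No difference was shown for these 3. For Ly6a the interval allows a fold change in the retina of between 0.536 and 1.15 times that in the cultures. Without retina PBS library 3 the Ly6e difference was 0.11, of the opposite sign.

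**Figure D5:**
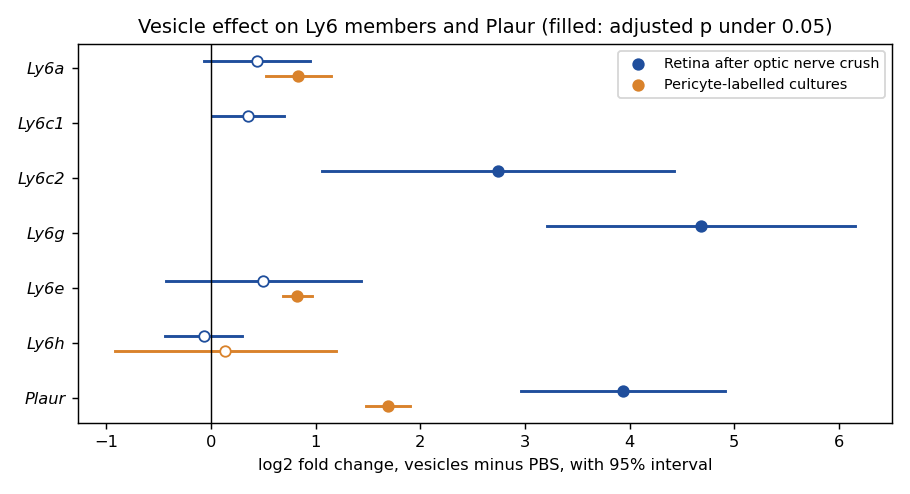
Log2 fold change with vesicles against PBS, with 95% intervals, for members tested in the retina (blue) or the pericyte-labelled cultures (orange), and for Plaur. Filled points have an adjusted p under 0.05. Ly6a and Ly6e are filled in the cultures only, with retina intervals that overlap them, and Ly6c2, Ly6g and Ly6h have retina estimates of 2.74, 4.69 and -0.07.

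Beyond the members, the wider Ly6 and urokinase receptor family shares the same fold. Of 35 such genes 11 were tested in the retina and 8 in the cultures, and in each table Plaur alone was called, higher with vesicles. Over all tested genes 10.7% were called higher in the retina and 10.9% in the cultures, so these counts are no result about the family. Plaur encodes the urokinase receptor, which directs plasmin activation at the cell surface. It was 1.44, 0.426 and 1.86 CPM in PBS retinas and 15.7, 23.8 and 17.9 with vesicles, a log2 fold change of 3.94 ± 0.42 (edgeR adjusted p = 0.00092). In the cultures it was 18.9, 15.9 and 14.2 CPM and 59.6, 49.3 and 50.3 CPM, a log2 fold change of 1.70 ± 0.10 (adjusted p = 4.2e-11). The groups stood apart in both. The median log2 fold change of the tested family genes was 0.06 in the retina and -0.11 in the cultures.

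The other relatives fixed for description did not pass the test or were too low to be tested. Cd59a, a complement inhibitor, was 99.9 ± 22.6 CPM with PBS and 104 ± 8.49 with vesicles in the retina (edgeR adjusted p = 0.84), and 31.2 ± 3.34 and 27.1 ± 1.13 in the cultures (adjusted p = 0.13). Lynx1, a modulator of nicotinic receptors, was 86.9 ± 24.6 and 80.9 ± 15.1 CPM in the retina (adjusted p = 0.81) and 77.0 ± 1.94 and 75.5 ± 4.08 in the cultures (adjusted p = 0.83). Lypd1, of the same kind, was 1.46 ± 0.153 and 0.896 ± 0.453 CPM in the retina (adjusted p = 0.30) and had 19 counts with PBS and 13 with vesicles in the cultures. Ly6d, an epithelial and lymphoid antigen, had 1 count with PBS and 6 with vesicles in the retina and 4 and 0 in the cultures. Gpihbp1, the capillary anchor of lipoprotein lipase, had 0 and 2 counts in the retina and none in the cultures. The epithelial genes Slurp1, Lypd2 and Psca were highest with PBS in retina PBS library 3 (8.41, 11.7 and 18.7 CPM). Without that library they also passed in the retina, with log2 changes of 1.86, 1.70 and 1.11 (edgeR adjusted p = 0.020, 0.014 and 0.013). Leaving out the highest PBS value raises such changes by itself.

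Enzymes that build and attach the GPI anchor were followed as a list. Over all tested genes 10.7% were called higher and 5.19% lower in the retina, and 10.9% and 8.9% in the cultures. The counts of the list are therefore descriptions and no result about the pathway. Of 27 tested genes 2 were called higher and 1 lower in the retina, where Pign went from 19.7 ± 4.64 to 36.0 ± 6.43 CPM (edgeR adjusted p = 0.015), Dpm3 from 38.3 ± 9.91 to 64.9 ± 2.99 (adjusted p = 0.022) and Dpm2 from 57.8 ± 10.3 to 36.8 ± 5.28 (adjusted p = 0.019). In the cultures 1 of 27 was called higher, Pgap2 (21.6 ± 0.323 to 25.5 ± 0.726 CPM, adjusted p = 0.044), and 1 lower, Pgap1 (17.8 ± 0.288 to 13.4 ± 1.04, adjusted p = 0.0054). Both Pgap proteins remodel the anchor after its attachment.

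The named genes whose log2 levels followed a member most closely over the 6 libraries of a table are given next. Other members and unnamed gene models were left out of the ranking. It is a description only, since libraries share treatment and depth. In the cultures, Ly6e was followed most closely by Tnfsf10 (Pearson r = 0.999), Stard5 (0.999) and Tap1 (0.998), with 4.86% of tested genes at an r of at least 0.95. Ly6a was followed by Acsl5 (0.993), Frk (0.993) and Zswim4 (0.992), with 2.07% of genes at that level. In the retina, Ly6c2 was followed by Zdhhc13 (0.996), Zfp595 (0.995) and Eif3m (0.995), with 1.9% of genes. Ly6a was followed there by Ubn1 (0.982), Fam102b (0.981) and Ints5 (0.976), and Ly6e by Rtl6 (0.989), Smarcb1 (0.987) and Ccdc125 (0.985), with 0.13% and 0.285% of genes at that level.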

How the data were processed

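Counts per gene were measured in 12 mouse libraries, 3 in each of 4 groups. Per the submitters' processing notes, FastQC 0.11.8, HISAT2 2.0.5, featureCounts 1.5.0-p3 and limma were used by the authors. The build of the genome was not stated in what was used here. Raw counts as deposited fill 1 table per tissue, and pericyte columns were matched by the sample descriptions. No 2 libraries agreed within sampling noise (lowest chi-squared per degree of freedom 5.87).

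Each table was fitted in R 4.3.3 with edgeR 4.0.16 (filterByExpr with a minimum count of 10, trimmed mean of M-values scaling, robust quasi-likelihood test, Benjamini-Hochberg adjustment over all tested genes, threshold 0.05). The joint fit used limma 3.58.1 with voom and quality weights. DESeq2 1.42.0, other size factors, no filter, summed copies, a replicate block and leaving out libraries were alternatives. The tests were tried on simulated data. Counting intervals and floors (3 counts) cover counting error only, since the libraries carry no molecular identifiers as far as stated, so that reads need not be independent molecules. Per-length levels divide by the exons of GENCODE M21. Motifs and coding alignments used Biopython 1.88 and Python 3.11.15.

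Named genes are the 7 members, called relatives and fixed examples of the family, the called GPI anchor genes with the smallest p, and defining markers. Also named are the 3 genes most alike in log2(CPM + 0.5) with a mean of at least 1 CPM. Members and unnamed gene models were left out of that ranking. Slurp1, Lypd2 and Psca, Krt5, Cd36, Cspg4, S100a9 and the epithelium list were chosen after values were seen. The members and lists were chosen with earlier results of these data known.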

Additional observations from a re-analysis of the deposited data

Results flagged for a closer look

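The vesicle effect on Plaur, the urokinase receptor, differed between the tissues in the joint fit. Its log2 effect in the retina minus that in the pericyte-labelled cultures was 2.43 ± 0.54 (limma adjusted p = 0.0057, 95% interval 1.30 to 3.56), and it was higher with vesicles in all 6 treated libraries. Without retina PBS library 2, which held the lowest level at 0.426 CPM, the difference was 1.79 with an adjusted p of 0.057.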

How the results depend on the processing

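In the retina the 2449 called genes became 1420 without the lens-rich libraries and between 1328 and 2909 with 1 library left out. Of the members, 1 was called with RLE (relative log expression) size factors and 1 without the lens-rich libraries, and between 1 and 3 with 1 library left out. Called relatives outside the members numbered 2 with DESeq2 (Plaur and Lypd2) and between 1 and 4 with 1 library left out, and in the cultures between 1 and 2. Ly6c2 fell short of the threshold at 2.73 with RLE factors (adjusted p = 0.051), 2.74 without the filter (0.13) and 3.42 without the lens-rich libraries (0.14). With 1 library left out it ranged from 2.26 to 3.30. The other leave-one-out ranges in the retina were 0.21 to 0.50 for Ly6c1, 0.24 to 0.72 for Ly6a, 0.30 to 0.97 for Ly6e, 4.17 to 5.06 for Ly6g and -0.19 to 0.09 for Ly6h. The sum of Ly6c1 and Ly6c2 passed at 0.83 and that of Ly6a, Ly6c1, Ly6c2, Ly6g and Ly6i at 0.67, which are changes of the sums and not of any member. Ly6h changed sign in the retina without PBS library 2 (0.092) or vesicle library 2 (0.044), and in the cultures without PBS library 2 (-0.069) or vesicle library 3 (-0.081), where it ranged from -0.08 to 0.56. The Ly6e difference between tables ranged from -0.46 to 0.11 with 1 library left out and changed sign without retina PBS library 3 (0.11). The cause was not tested in any of these. Same-numbered culture libraries did not deviate together (r = 0.018, 0.027 and -0.024). No pairing by number was seen, which such correlations cannot exclude. A replicate block there left 3287 genes called against 3365, and gave 0.84 for Ly6a, 0.82 for Ly6e and 0.16 for Ly6h, with no call changed. No paired analysis was possible in the retina because its columns were matched to groups and not to the numbered samples of the labels. Ly6c1, Ly6c2 and Ly6i in the cultures and Ly6i in the retina lie near the limit of depth, and Ly6c2, Ly6c1 and Ly6a depend on how reads of close copies were counted.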
